A study of Mus musculus with 12 samples.

Results

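Genes of the major histocompatibility complex (MHC) class I presentation pathway were followed in macrophages sorted from mouse synovium, the membrane that lines joints. The 10 members were picked by symbol from the 26699 genes counted, and all 10 were among the 11927 genes that passed a filter on low counts. They cover the class I chains (*H2-K1*, *H2-D1*, *B2m*), their transcriptional activator (*Nlrc5*), peptide transport and loading (*Tap1*, *Tap2*, *Tapbp*) and the inducible proteasome subunits (*Psmb8*, *Psmb9*, *Psmb10*).

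Explants of whole synovium from wild-type C57BL/6 mice were exposed to vehicle or to CGRP (calcitonin gene-related peptide, a neuropeptide of pain-sensing neurons; 100 nM, 4 h), then digested and sorted. The IAIE subset was MHCII+ CD11c- and the CD11c subset was MHCII+ CD11c+, so each subset was defined by its gate. There were 3 control and 3 CGRP libraries of each subset, 12 in all. CGRP was added to the tissue before sorting, so every cell type of the explant was exposed. Age and sex of these mice are not given in the labels, control titles carry the word Healthy, and nothing states whether replicates came from separate animals. P-values therefore measure the spread between these libraries, which may be technical.

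Class I molecules show peptides from inside the cell to CD8+ T cells and are made by nearly all nucleated cells. Proteasomes cut proteins into peptides, the TAP transporter carries these into the endoplasmic reticulum, and tapasin holds the empty class I molecule at the transporter until a peptide binds. Interferons are known to raise most genes of the pathway, and NLRC5 acts on class I promoters much as CIITA does on class II promoters.

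Sequences before the RefSeq start of the class I chain genes are shown because class I promoters carry known elements for interferon regulatory factors, NF-kB and the NLRC5-associated complex. They were read from RefSeq (GRCm38.p6), which gave an entry for 8 of the 10 members (not *Nlrc5* or *Tap2*). Capitals mark matches, on either strand, to GAANNGAAA or GAAANNGAAA (interferon-stimulated response element), GGGNNTTNCC (NF-kB type), TGACG (as found in cAMP response elements), CCAAT and TTCNNNGAA (STAT type).
H2-K1, chr17:34000348-34000597, minus strand: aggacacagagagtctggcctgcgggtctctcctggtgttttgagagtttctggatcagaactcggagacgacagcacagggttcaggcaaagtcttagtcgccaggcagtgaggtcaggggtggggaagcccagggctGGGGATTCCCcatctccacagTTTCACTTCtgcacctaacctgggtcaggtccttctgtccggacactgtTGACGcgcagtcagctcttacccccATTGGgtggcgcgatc
B2m, chr2:122147437-122147685, plus strand: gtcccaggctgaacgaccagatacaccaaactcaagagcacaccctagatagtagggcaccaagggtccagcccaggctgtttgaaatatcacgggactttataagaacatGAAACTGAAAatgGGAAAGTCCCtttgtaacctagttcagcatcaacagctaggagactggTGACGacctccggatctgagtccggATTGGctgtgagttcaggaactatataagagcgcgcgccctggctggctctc

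The windows of other members overlap annotated untranslated regions and are not printed whole. The stretch that holds the NF-kB type and interferon-type matches lies close to the RefSeq start of each class I chain gene, and is set side by side here. For *H2-D1* it lies 171 to 142 bases before that start but inside the longer gene span of GENCODE M21, in an annotated untranslated region.
H2-K1, chr17:34000429-34000458, minus strand: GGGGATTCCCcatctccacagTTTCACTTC
H2-D1, chr17:35262923-35262952, plus strand: GGGGATTCCCcatctcctcagTTTCACTTC
B2m, chr2:122147548-122147570, plus strand: GAAACTGAAAatgGGAAAGTCCC
The *H2-K1* and *H2-D1* stretches differed at 1 of 30 bases, A18T, counted from 1 at the 5′ end with the *H2-K1* base first. In *B2m* the same kinds of match stood in the opposite order. Among 27025 promoter windows of 250 bases before the start, 6.34% held GAANNGAAA, 3.04% GAAANNGAAA, 4.00% GGGNNTTNCC, 17.9% TGACG, 34.5% CCAAT and 7.18% TTCNNNGAA. Of the 8 member windows, 2 held GAANNGAAA, 1 held GAAANNGAAA, 3 held GGGNNTTNCC, 5 held TGACG, 6 held CCAAT and 1 (*Psmb8*) held TTCNNNGAA. The windows of *Tap1*, *Tapbp*, *Psmb8*, *Psmb9* and *Psmb10* held no match to either interferon-type spelling. Of their 250 bases, however, 246, 244, 250, 250 and 52 lie in annotated untranslated regions. The first 4 windows thus hold little or no sequence outside annotated transcripts, and sequence further upstream was not searched. A match or its absence describes the letters of this window only.

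The libraries held between 2127191 and 5649698 counts each. Levels are given as CPM, counts scaled to library size, and a floor of 3 counts equals 0.531 to 1.41 CPM. The sort markers followed the gate: *Itgax*, which encodes CD11c, stood at 6.19 ± 4.76 CPM (SD, n = 3) in IAIE control and 237 ± 29.0 CPM in CD11c control libraries. None of the 7 macrophage markers was at or under the floor in any group, and their summed level was 4866 to 6069 CPM in IAIE control, 3875 to 4931 in IAIE CGRP, 2034 to 2424 in CD11c control and 1647 to 2295 in CD11c CGRP libraries. In the same order of groups, 7 dendritic cell markers summed to 118 to 176, 95.0 to 122, 618 to 668 and 664 to 772 CPM, with at most 1 of them at or under the floor. The sum of 6 fibroblast markers ran from 140 to 1010, 36.4 to 1537, 17.9 to 25.7 and 62.3 to 353 CPM. For 4 B cell markers the sums were 43.7 to 91.5, 17.7 to 31.5, 6.87 to 8.97 and 0.712 to 3.71 CPM. Those of 5 neutrophil markers were 51.5 to 154, 72.8 to 147, 18.8 to 153 and 18.0 to 86.4 CPM, and those of 6 endothelial markers 11.2 to 16.4, 20.4 to 35.5, 12.2 to 121 and 11.1 to 94.3 CPM. For *Cd3d*, *Cd2* and *Klrb1c*, the 3 counted markers of 8 listed for T and NK cells, they were 6.71 to 19.5, 4.62 to 8.49, 30.9 to 44.5 and 10.6 to 17.6 CPM. Nearly all of that sum was *Cd2* (a mean of 37.5 CPM in CD11c control libraries), while *Cd3d* and *Klrb1c* averaged 0.078 CPM each there, under the floor. Of the B cell markers up to 2 lay at or under the floor in a group, of the endothelial markers up to 2, and of the fibroblast and neutrophil markers up to 1. These sums can hide members that moved apart. In CD11c control and CGRP libraries *Ccr7* averaged 240 and 576 CPM, *Cd209a* 297 and 79.3 and *Flt3* 18.6 and 4.46. Of the 6 dendritic cell markers tested there, edgeR called 1 higher with CGRP and 2 lower. Among fibroblast markers, *Prg4* averaged 19.3 ± 27.6 CPM in IAIE control and 479 ± 826 in IAIE CGRP libraries. It alone of the 5 tested had a log2 value above 0 there, and edgeR called 2 others lower. The part of other cell types in the results was not tested. In such bulk samples, fewer cells of a type and less RNA per cell cannot be told apart.

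The first question was how much class I machinery each subset carried without CGRP. The class I chains were among the most abundant transcripts: ordered by mean level over all libraries, *H2-D1* was number 22, *B2m* number 73 and *H2-K1* number 101 of the 11927 genes tested. Per kilobase of exon, IAIE control cells held 1265 ± 52.6 CPM of *B2m*, the invariant light chain, 996 ± 118 of the heavy chain *H2-D1* and 293 ± 21.8 of the heavy chain *H2-K1*. *Tapbp*, the tapasin gene, stood at 53.3 ± 5.37 CPM per kilobase. The other members lay far lower on this scale, from 12.3 ± 4.23 for *Psmb8*, 11.4 ± 1.61 for *Nlrc5*, 11.2 ± 1.90 for *Psmb10* and 10.1 ± 1.94 for *Tap1* down to 7.0 ± 0.902 for *Tap2* and 2.05 ± 0.437 for *Psmb9*. In IAIE control cells, *Psmb8*, *Nlrc5*, *Psmb10* and *Tap1* did not differ from each other beyond their spread. In CD11c control cells the order was another: *H2-D1* stood first at 1267 ± 78.7 CPM per kilobase, then *B2m* at 1048 ± 69.7, *H2-K1* at 365 ± 18.4 and *Tapbp* at 55.2 ± 1.1. *Psmb8* followed at 23.3 ± 3.26 and *Tap1* at 14.96 ± 2.32, then *Psmb10* at 11.8 ± 1.54 and *Tap2* at 11.6 ± 1.01, which did not differ beyond their spread, *Nlrc5* at 6.89 ± 1.28 and *Psmb9* at 3.02 ± 0.908.

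**Figure D1:**
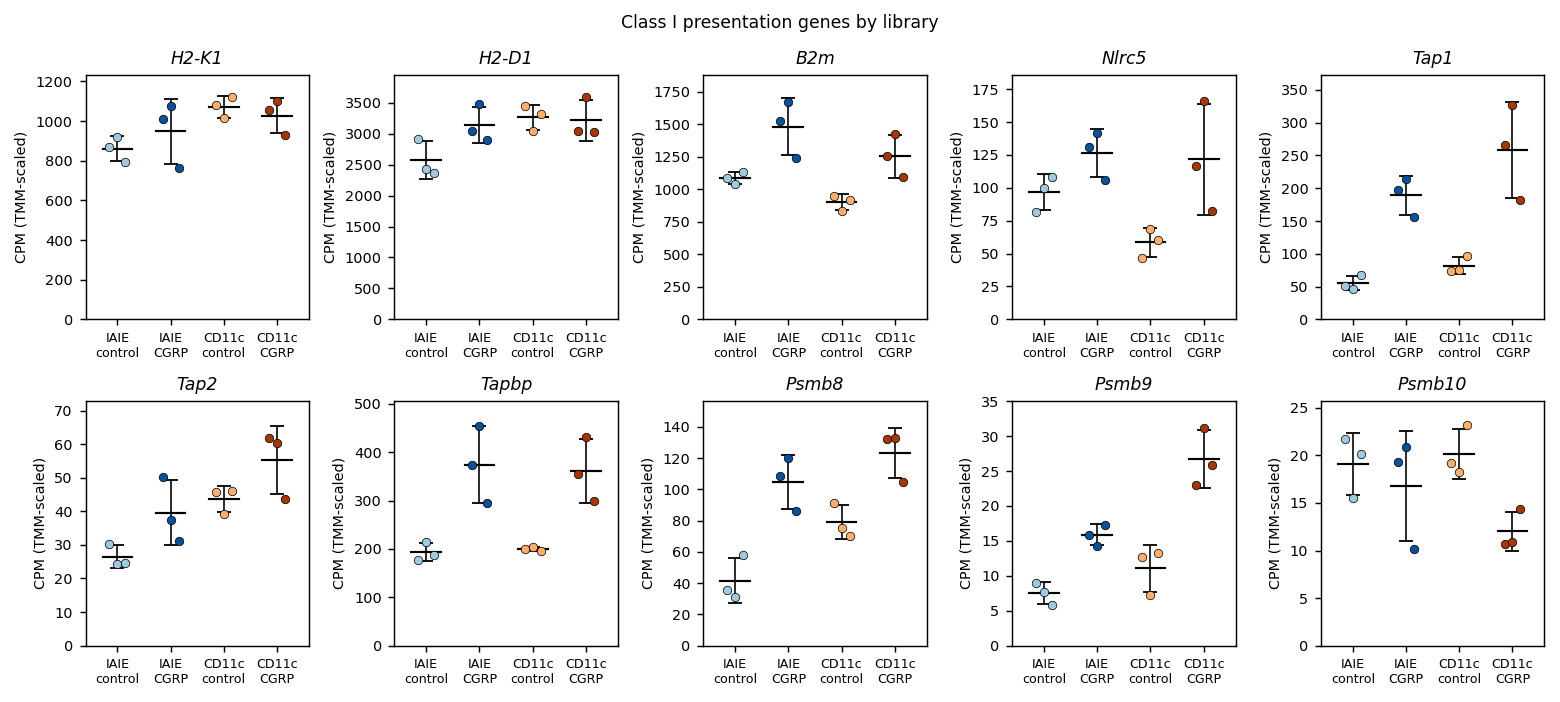
Level of each member in CPM (TMM-scaled, vertical axis from 0) in the 12 libraries, by group on the horizontal axis; points are libraries, lines are means and bars are SD (n = 3). *Tap1*, *Tapbp* and *Psmb8* lie higher in every CGRP library than in any control library of the same subset, while *H2-K1* groups overlap.

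With CGRP, 5 of the 10 members rose in the IAIE subset (*B2m*, *Tap1*, *Tapbp*, *Psmb8*, *Psmb9*) and 6 in the CD11c subset (the same 5 and *Nlrc5*), by edgeR's quasi-likelihood test with Benjamini-Hochberg adjustment over all genes at a threshold of 0.05. No member fell by edgeR, DESeq2 or limma-voom. At an unadjusted p under 0.05 in edgeR, 7 members were higher in IAIE (the 5 called, *H2-D1* and *Tap2*) and 6 in CD11c cells. At the same level, 0 members were lower in IAIE and 1 (*Psmb10*) in CD11c cells. Of all genes tested, 5.32% rose and 3.89% fell in IAIE cells, and 6.29% rose and 4.59% fell in CD11c cells. The median log2 fold change of the 10 members was 0.51 in IAIE and 0.56 in CD11c cells, beside -0.023 and 0.0016 over all genes tested. CGRP and control libraries did not overlap for 6 members in IAIE and 7 in CD11c cells, against 24.9% and 29.2% of all genes tested.

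**Figure D2:**
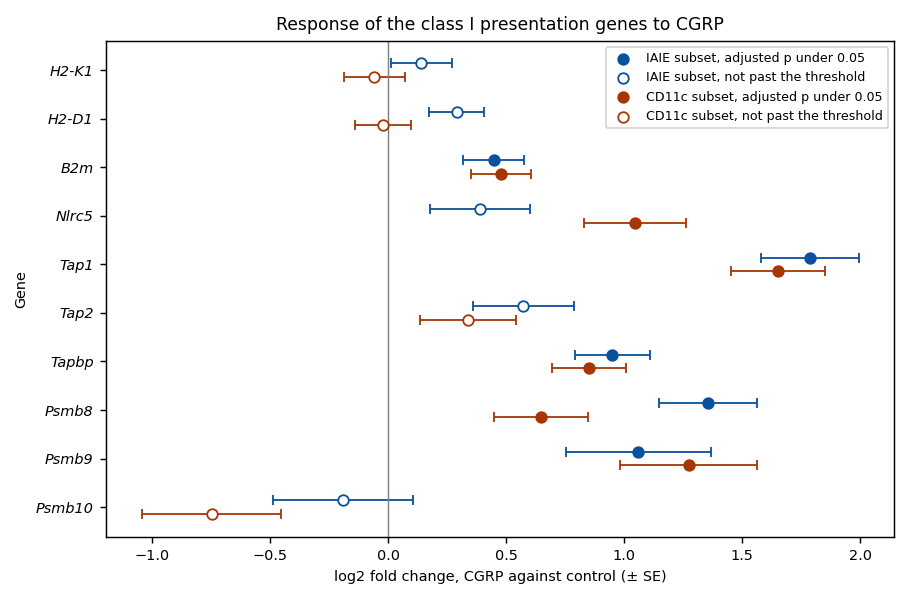
Log2 fold change of each member, CGRP against control (horizontal axis, ± SE), in IAIE (blue) and CD11c (brown) cells; filled points have an adjusted p under 0.05. *Tap1* has the highest value in both subsets, 1.79 and 1.65, and *Psmb10* is the only member below 0 in both.

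Of the class I chains, the light chain rose and the heavy chains did not pass the test. The difference between the chains was not tested, and *H2-D1* in IAIE cells had an unadjusted p of 0.0240 in edgeR. *B2m* (chromosome 2, 122147686 to 122153083) stood at 1086, 1043 and 1133 CPM in the IAIE control libraries and at 1528, 1675 and 1245 CPM with CGRP. In CD11c cells it stood at 952, 835 and 916 CPM without CGRP and at 1254, 1424 and 1092 CPM with it. The groups did not overlap in either subset, and the log2 fold changes were 0.45 ± 0.13 (SE, edgeR adjusted p = 0.0314) and 0.48 ± 0.13 (adjusted p = 0.0186). These calls were lost when either of IAIE control replicates 1 and 2 or IAIE CGRP replicates 1 and 2 was left out (log2 fold change down to 0.36, adjusted p up to 0.158), and without CD11c control replicate 2 or 3 or CD11c CGRP replicate 1 or 2 (down to 0.38, adjusted p up to 0.114). The IAIE call was also lost with upper-quartile scaling.

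*H2-D1*, the most abundant member by CPM, stood at 2920, 2424 and 2364 CPM in IAIE control and at 3049, 3473 and 2900 CPM in IAIE CGRP libraries, where the highest control library exceeded the lowest CGRP library. In CD11c cells it stood at 3444, 3046 and 3315 CPM without and 3037, 3597 and 3020 CPM with CGRP, again with overlap. Its log2 fold change was 0.29 ± 0.12 in IAIE (edgeR adjusted p = 0.148) and -0.022 ± 0.12 in CD11c cells (adjusted p = 0.946). *H2-K1* ran from 764 to 1120 CPM over all 12 libraries, with log2 fold changes of 0.14 ± 0.13 (adjusted p = 0.590) and -0.059 ± 0.13 (adjusted p = 0.856). The ratio of *H2-K1* to *H2-D1* per kilobase of exon lay between 0.231 and 0.333 in every library, and the groups overlapped. Both genes share sequence with other class I genes: 9.63% of the 50-base words of *H2-K1* transcripts and 12.8% of those of *H2-D1* occur in transcripts of another gene, so that reads could be split or lost in counting. *H2-K1* lies on chromosome 17 from 33996017 to 34000347 and *H2-D1* from 35262730 to 35267499 (mm10, GENCODE M21).

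*Nlrc5*, the class I trans-activator (chromosome 8, 94434356 to 94527272), rose in the CD11c subset, where it had been lower than in IAIE cells. Both comparisons use the same CD11c control libraries, and the lower level without CGRP lost its call in 4 of 23 alternative fits. Its level was 46.9, 68.5 and 60.1 CPM in CD11c control and 117, 166 and 82.6 CPM in CD11c CGRP libraries, a log2 fold change of 1.04 ± 0.22 (edgeR adjusted p = 0.00274). This call held in all 22 alternative fits. In IAIE cells it stood at 81.6, 99.8 and 108 CPM without and 131, 141 and 106 CPM with CGRP, with overlapping groups and a log2 fold change of 0.39 ± 0.21 (adjusted p = 0.306). The difference between the subsets was 0.66 ± 0.30, with an unadjusted p of 0.0422 and an adjusted p of 0.553 in the edgeR fit, so a difference in response was not shown.

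Of the 10 members, *Tap1* had the largest log2 fold change in both subsets. *Tap1*, a subunit of the peptide transporter (chromosome 17, 34187553 to 34197225), stood at 51.2, 47.0 and 67.1 CPM in IAIE control and at 197, 214 and 157 CPM in IAIE CGRP libraries. In CD11c cells it stood at 73.4, 75.8 and 96.5 CPM without and 267, 327 and 182 CPM with CGRP. No control library of either subset reached the lowest CGRP library. It was 3.45-fold higher in IAIE (log2 1.79 ± 0.21, edgeR adjusted p = 1.54e-05) and 3.14-fold higher in CD11c cells (log2 1.65 ± 0.20, adjusted p = 1.48e-05).

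*Tap2*, the partner subunit (chromosome 17, 34203527 to 34216321), did not pass the test in either subset. It stood at 30.4, 24.4 and 24.6 CPM in IAIE control and 50.3, 37.4 and 31.1 CPM in IAIE CGRP libraries, which did not overlap, with a log2 fold change of 0.57 ± 0.22 (edgeR adjusted p = 0.113). In CD11c cells it stood at 45.7, 39.3 and 46.1 CPM without and 61.8, 60.4 and 43.6 CPM with CGRP. There the groups overlapped and the log2 fold change was 0.34 ± 0.21 (adjusted p = 0.367). The ratio of *Tap1* to *Tap2* per kilobase of exon, chosen after its values were seen and not tested, was 1.16, 1.33 and 1.88 in IAIE control and 2.70, 3.95 and 3.47 in IAIE CGRP libraries. In CD11c cells the ratio was 1.11, 1.33 and 1.45 without and 2.98, 3.74 and 2.88 with CGRP. Control and CGRP libraries did not overlap in either subset.

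*Tapbp*, which encodes tapasin (chromosome 17, 33915899 to 33929292), stood at 178, 215 and 188 CPM in IAIE control and 373, 455 and 295 CPM in IAIE CGRP libraries. In CD11c cells the levels were 201, 204 and 196 CPM without and 354, 431 and 298 CPM with CGRP. It was 1.93-fold higher in IAIE (log2 0.95 ± 0.16, edgeR adjusted p = 0.000611) and 1.80-fold higher in CD11c cells (log2 0.85 ± 0.16, adjusted p = 0.00116). The calls of *Tap1* and *Tapbp* held in all 22 alternative fits in both subsets. Exons of other genes on the opposite strand cover 24.9% of the *Tapbp* exons, 18.5% of those of *Tap2*, 14.7% of those of *Psmb8*, 5.79% of those of *Psmb9* and 3.87% of those of *Tap1*. The strand setting of the counting is not stated, so these reads cannot be assigned with certainty.

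Of the 3 inducible proteasome subunits, *Psmb8* and *Psmb9* rose in both subsets and *Psmb10* passed the test in neither. *Psmb8* (LMP7, chromosome 17, 34197721 to 34201454) stood at 35.7, 31 and 57.7 CPM in IAIE control and 109, 120 and 85.8 CPM in IAIE CGRP libraries. In CD11c cells it stood at 91.4, 75.1 and 70.4 CPM without and 132, 133 and 104 CPM with CGRP. The log2 fold change was 1.36 ± 0.21 in IAIE (edgeR adjusted p = 0.000316), a call that held in all 22 alternative fits, and 0.65 ± 0.20 in CD11c cells (adjusted p = 0.0416). The CD11c call was lost in 6 alternative fits: upper-quartile scaling, and without CD11c control replicate 2 or 3, CD11c CGRP replicate 1 or 2, or IAIE CGRP replicate 1 (log2 fold change 0.55 to 0.76 over all alternatives, adjusted p up to 0.178). The difference between subsets was -0.71 ± 0.29, with an unadjusted p of 0.0232 and an adjusted p of 0.466.

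*Psmb9* (LMP2, chromosome 17, 34181987 to 34187764) had 13 to 145 counts a library, and *Psmb10* 44 to 108, the fewest of the members. It stood at 9.0, 7.74 and 5.82 CPM in IAIE control and 15.9, 14.3 and 17.3 CPM in IAIE CGRP libraries. In CD11c cells the levels were 12.6, 7.25 and 13.3 CPM without and 23, 31.2 and 25.8 CPM with CGRP, again with no overlap. The log2 fold changes were 1.06 ± 0.31 (edgeR adjusted p = 0.0338) and 1.27 ± 0.29 (adjusted p = 0.00609). The IAIE call was lost in 7 alternative fits: limma-voom, the compared libraries alone, and without any of IAIE CGRP replicates 1, 2 and 3 or IAIE control replicates 2 and 3 (0.95 to 1.21 over all alternatives, adjusted p up to 0.108). The CD11c call was lost without CD11c control replicate 2 (1.0, adjusted p = 0.0522).

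*Psmb10* (MECL-1, chromosome 8, 105935735 to 105938444) had log2 values below 0 in both subsets. It stood at 21.7, 15.5 and 20.1 CPM in IAIE control and 19.3, 20.9 and 10.2 CPM in IAIE CGRP libraries. In CD11c cells the levels were 19.2, 18.2 and 23.2 CPM without and 10.7, 10.9 and 14.4 CPM with CGRP, which did not overlap. The log2 fold changes were -0.19 ± 0.30 (edgeR adjusted p = 0.773) and -0.75 ± 0.29 (adjusted p = 0.122).

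Each inducible subunit takes the place of a constitutive one, so the ratio of the pair was taken within each library. An exact permutation test (two-sided, treatment labels permuted within each subset, 400 arrangements, smallest p 0.005) was run on the 3 pairs. It permuted the subsets independently, although same-numbered CGRP libraries of both subsets deviated together, so its p-values may be too small. The log2 ratio of *Psmb10* to *Psmb7* was lower with CGRP by a mean of -0.89 (exact p = 0.005, the smallest this design allows, 0.015 adjusted over the 3 pairs). Per kilobase it was 0.889, 0.815 and 1.04 in IAIE control, 0.678, 0.581 and 0.364 in IAIE CGRP, 0.865, 0.588 and 0.857 in CD11c control and 0.389, 0.337 and 0.436 in CD11c CGRP libraries, with no overlap in either subset. The log2 ratio of *Psmb9* to *Psmb6* was higher with CGRP by 0.71 (exact p = 0.01, adjusted 0.015), although the CD11c groups overlapped. The constitutive partners moved as well. *Psmb7* averaged 42.0 ± 6.06 and 61.8 ± 8.95 CPM in IAIE control and CGRP libraries. In CD11c cells it averaged 53.6 ± 8.88 and 62.2 ± 5.93 CPM. For *Psmb6* the means were 74.3 and 99.0 CPM in IAIE and 81.5 and 118 CPM in CD11c cells. Neither passed the edgeR threshold in either subset. At an unadjusted p under 0.05 in edgeR, both were higher in IAIE and *Psmb6* in CD11c cells. Of the 3 constitutive subunits, edgeR called 1 higher in IAIE cells, DESeq2 2 and limma-voom 1. In CD11c cells edgeR and DESeq2 called 0 and limma-voom 1. A change in ratio therefore does not show which subunit changed.

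The log2 ratio of *Psmb8* to *Psmb5* differed by -0.0010 (exact p = 0.995). In IAIE control libraries this ratio ranged from 0.293 to 1.27 per kilobase, a wider range than in any other group. *Psmb5*, the constitutive partner of *Psmb8*, rose in IAIE cells itself (log2 1.27 ± 0.26, edgeR adjusted p = 0.00330) and stood at 0.64 ± 0.24 in CD11c cells (adjusted p = 0.112).

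**Figure D3:**
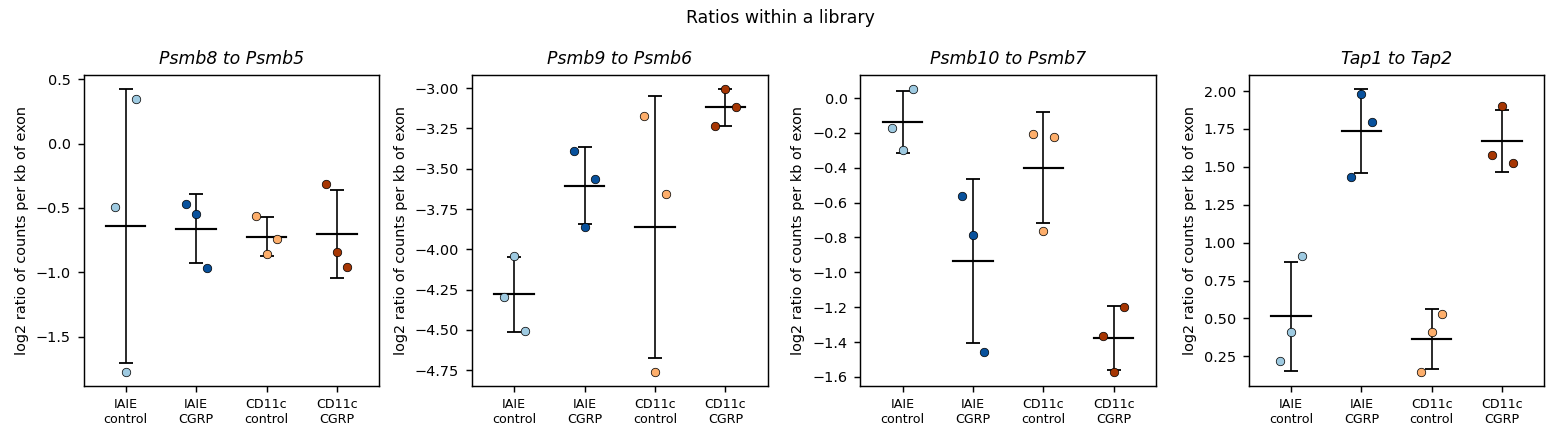
Log2 ratio of counts per kilobase of exon within a library (vertical axis; each panel has its own range, not starting at 0) for 3 inducible to constitutive proteasome subunits and for *Tap1* to *Tap2*, by group; points are libraries, lines means and bars SD (n = 3). The *Psmb10* to *Psmb7* ratio is lower and the *Tap1* to *Tap2* ratio higher in every CGRP library than in any control library of the same subset.

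The second question was whether the subsets carried the pathway at different levels. Without CGRP, CD11c cells had more *Psmb8* (log2 0.94 ± 0.21, edgeR adjusted p = 0.00311), *Tap2* (0.72 ± 0.22, adjusted p = 0.0223) and *H2-D1* (0.35 ± 0.12, adjusted p = 0.0420) than IAIE cells, and less *Nlrc5* (-0.71 ± 0.22, adjusted p = 0.0248). Of all genes tested, 10.2% were higher and 10.9% lower in CD11c cells, beside 3 and 1 of the 10 members. *Tap1* lay at 0.59 ± 0.21 (adjusted p = 0.0501) and was called higher in 14 of 23 alternative fits, DESeq2, RLE and upper-quartile scaling among them (adjusted p from 0.00141 to 0.173 over the 23). The 7 members whose control libraries did not overlap between the subsets compare with 34.2% of all genes. The *H2-D1*, *Tap2* and *Nlrc5* calls were lost when CD11c control replicate 1 or 3 or IAIE control replicate 2 or 3 was left out (adjusted p up to 0.124, 0.0752 and 0.112), and that of *H2-D1* also with 1 surrogate variable.

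With CGRP, no member passed the test between subsets by edgeR or DESeq2 and 1 did by limma-voom, beside 8.36% of all genes higher and 8.51% lower in CD11c cells. At an unadjusted p under 0.05 lay *Psmb9* (log2 0.75 ± 0.28, unadjusted p = 0.0155), *Tap2* (0.48 ± 0.20, 0.0292) and *Tap1* (0.45 ± 0.19, 0.0298). In these CGRP libraries same-numbered samples of the subsets deviated together, and with the replicate number shared by the subsets as a block *Tap1* passed (0.42, adjusted p = 0.0187). The subset-by-CGRP interaction was called for no member by edgeR, DESeq2 or limma-voom, beside 0.134% of all genes called higher and 0.0168% lower by edgeR. At an unadjusted p under 0.05 lay *Psmb8* and *Nlrc5*, given above.

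Other genes of the pathway were taken by list. Of 12 tested other class I and class I-like genes, 4 rose in IAIE cells (*H2-T22*, *H2-Q7*, *H2-T24*, *H2-T23*) and 2 in CD11c cells (*H2-T22* and *H2-T23*). *H2-T22*, a ligand of some gamma-delta T cells, had log2 fold changes of 1.46 ± 0.30 (edgeR adjusted p = 0.00319) and 1.92 ± 0.29 (adjusted p = 0.000163). *H2-T23*, which encodes Qa-1, had 0.60 ± 0.17 and 0.54 ± 0.17. None of the 6 genes for loading chaperones and trimming (*Calr*, *Canx*, *Pdia3*, *Hspa5*, *Tapbpl*, *Erap1*) passed in either subset by edgeR, and the median of the list was 0.0072 in IAIE and 0.040 in CD11c cells. For a list of 6 genes, a count of 0 is near the share of all genes called (5.32% higher and 3.89% lower in IAIE, 6.29% and 4.59% in CD11c cells). *Erap1*, which trims peptides, had -0.59 ± 0.20 in CD11c cells (adjusted p = 0.0652), the only gene of the list at an unadjusted p under 0.05, and was called lower there by DESeq2 and limma-voom. Reads of the near-identical *H2-T* and *H2-Q* genes may be split between copies.

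Of 5 proteasome activator genes, 3 rose in IAIE cells (*Psme2*, *Psme1*, *Psme4*) and 2 in CD11c cells (*Psme2*, *Psme4*). *Psme2*, a subunit of the PA28 cap, had log2 fold changes of 0.75 ± 0.17 (edgeR adjusted p = 0.00885) and 0.62 ± 0.17 (adjusted p = 0.0186). Of 15 genes of the 20S core and its assembly, 5 rose in IAIE (*Psma5*, *Psmb5*, *Pomp*, *Psma2*, *Psmb3*) and 3 in CD11c cells (*Psma6*, *Psma2*, *Psmb1*), and all 15 values were above 0 in both, with medians of 0.47 and 0.52. None of 8 genes for factors that bind class I promoters (*Rfx5*, *Rfxap*, *Rfxank*, *Creb1*, *Atf1*, *Nfya*, *Nfyb*, *Nfyc*) passed in either subset by edgeR, DESeq2 or limma-voom. At an unadjusted p under 0.05 in edgeR lay 1 in IAIE (*Atf1*, higher) and 1 in CD11c cells (*Creb1*, lower). *Rfxank* and *Rfx5* lay close to the floor in IAIE control libraries (2.00 ± 1.41 and 2.94 ± 2.86 CPM), so a change there could be missed. For a list of 8 genes, a count of 0 is near the share of all genes called (5.32% higher and 3.89% lower in IAIE, 6.29% and 4.59% in CD11c cells).

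Many interferon pathway genes rose with CGRP. Beside the counts below, 5.32% of all genes tested rose and 3.89% fell in IAIE cells, and 6.29% rose and 4.59% fell in CD11c cells. Of 16 type I interferon-stimulated genes, 15 rose in each subset, and of 13 tested interferon-inducible GTPases, 8 rose in IAIE and 10 in CD11c cells. Of 9 interferon regulators, 6 rose and 1 fell (*Irf8*, -0.79 ± 0.18) in IAIE cells and 7 rose in CD11c cells. *Irf7* is counted both among these and among the type I genes. *Irf1* stood at -0.37 ± 0.17 in IAIE (edgeR adjusted p = 0.219) and rose in CD11c cells (0.68 ± 0.18, adjusted p = 0.0161). Of 8 tested genes for interferons, their receptors and receptor kinases, 1 fell and 0 rose in IAIE cells (by DESeq2 and limma-voom also 0 rose, and *Ifnb1* alone was higher at an unadjusted p under 0.05), and 2 fell and 1 rose in CD11c cells. For a list of 8 genes, counts of 0 or 1 are near the share of all genes called. The receptor kinase gene *Jak1* fell in both subsets, by 0.70 and 0.85 on the log2 scale. *Ifngr1*, a subunit of the interferon gamma receptor, fell in CD11c cells (-0.50 ± 0.15, edgeR adjusted p = 0.0414). *Ifnb1*, which encodes interferon beta, rose in CD11c cells by edgeR (2.28 ± 0.57, adjusted p = 0.0121) and DESeq2 but not by limma-voom, with overlapping groups, and had 1.21 ± 0.46 in IAIE cells (adjusted p = 0.121).

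Class II genes went the other way: of 10 tested, 6 fell in IAIE and 7 in CD11c cells and none rose (also at an unadjusted p under 0.05, by DESeq2 and by limma-voom), with medians of -0.80 and -0.88. These include *H2-Ab1* (-0.74 ± 0.11, edgeR adjusted p = 0.000316, and -0.66 ± 0.11, adjusted p = 0.000574), whose protein was part of the sort gate.

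**Figure D4:**
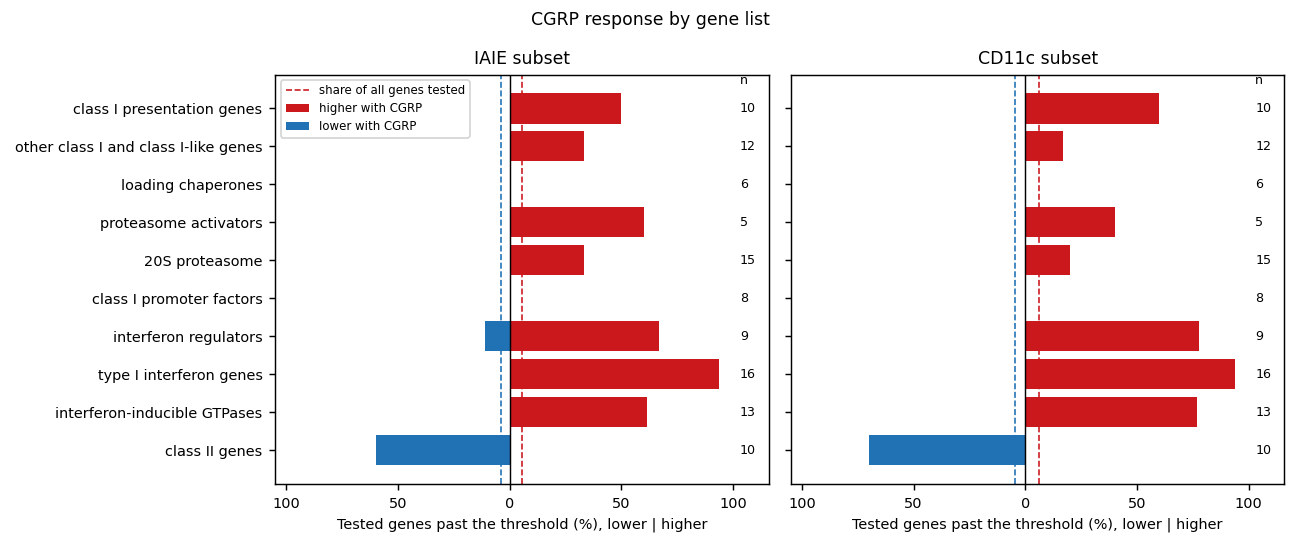
Share of the tested genes of each list (horizontal axis, percent; n at the right) past the threshold and higher (red, to the right) or lower (blue, to the left) with CGRP, in IAIE and CD11c cells; dashed lines give the share over all genes tested. Class I presentation genes reach 5 and 6 of 10 to the right, class II genes 6 and 7 of 10 to the left.

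Class I and class II genes lie interleaved on chromosome 17. In the stretch from *Tapbp* to *Btnl2* (33915899 to 34369495, mm10), 26 of 28 protein-coding genes counted were tested. Of the 6 class I members there, 4 rose in each subset. Of 8 class II genes, 6 fell in IAIE and 7 in CD11c cells. None of the 12 other genes passed in either subset by edgeR. At an unadjusted p under 0.05 lay 0 of them in IAIE and 2 in CD11c cells (*Ring1* and *Rps18*), and DESeq2 called *Rps18* lower in CD11c cells while limma-voom called none. With 12 genes, a count of 0 is near the share of all genes called (5.32% higher and 3.89% lower in IAIE, 6.29% and 4.59% in CD11c cells). *Psmb9*, *Tap1*, *Psmb8* and *Tap2* stand next to each other between the class II genes *H2-DMb1*, with log2 fold changes of -1.73 ± 0.22 and -1.40 ± 0.20, and *H2-Ob*, with -0.57 ± 0.35 and -1.11 ± 0.34.

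**Figure D5:**
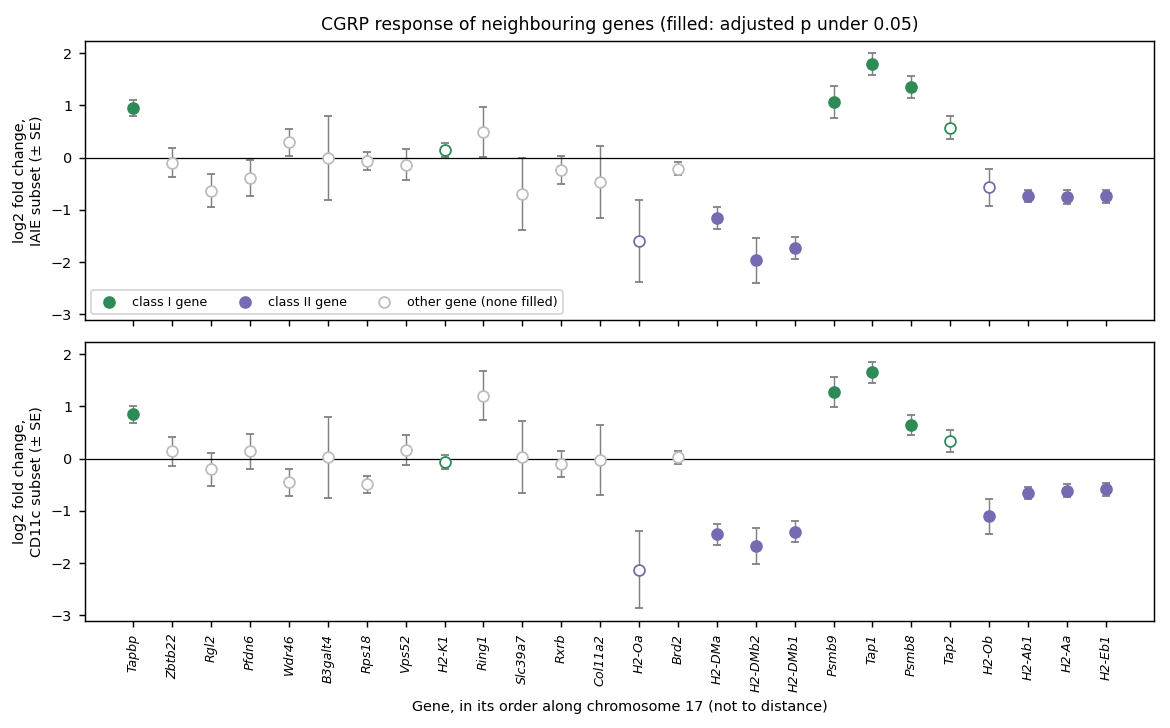
Log2 fold change with CGRP (± SE, vertical axis) of the 26 tested genes between *Tapbp* and *H2-Eb1*, in their order along chromosome 17 and not to distance, in IAIE (top) and CD11c cells (bottom); filled points have an adjusted p under 0.05. Green class I genes *Psmb9*, *Tap1* and *Psmb8* are filled above 0 and stand among purple class II genes below 0.

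Among the members, *Tap1* followed the rest most closely: Pearson's r with the mean of the other 9 was 0.96 over the 12 libraries, then 0.91 for *Tapbp*, 0.85 for *Psmb8*, 0.79 for *Psmb9*, 0.73 for *Tap2*, 0.68 for *B2m*, 0.64 for *H2-D1*, 0.48 for *Nlrc5* and 0.47 for *H2-K1*, and -0.51 for *Psmb10*. These libraries share the treatment contrast, so r describes the pattern only. Outside the members, the 5 genes whose pattern was most like the members' mean were *Gbp5* and *Npc2* (r = 0.98 each), *Rnf114* (0.95), *Cd274* and *Ik* (0.94 each), over the same 12 libraries. *Gbp5*, an interferon-inducible GTPase, stood at 36.6 ± 9.77 and 126 ± 48.8 CPM in IAIE control and CGRP libraries, and *Cd274*, which encodes PD-L1, had log2 fold changes of 2.07 in IAIE and 1.33 in CD11c cells.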

How the data were processed

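RNA of 12 libraries was sequenced after a stranded total RNA kit. Per the labels, the authors used Trim Galore, HISAT2 (genome mm10) and featureCounts, whose versions, annotation and strand setting are not given in the sources used here. The authors deposited unnormalised read counts for each gene symbol. A further 6 columns of the combined table match no sample label and were not used. Whether reads were collapsed by molecular identifier before counting is not given in the sources used here, so the floor of 3 counts covers counting error only.

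Low counts were filtered by group (edgeR's filterByExpr, with a minimum count of 10 and a total of 15), and TMM-scaled counts of all 12 libraries were fitted by edgeR (4.0.16, R 4.3.3) with a mean per group and tested by quasi-likelihood. Adjusted p-values are Benjamini-Hochberg values over all 11927 genes, with a threshold of 0.05. The biological coefficient of variation was 0.256, on 8 residual degrees of freedom. Gene positions and exon lengths are from GENCODE M21. All 10 members are named, and from the other lists genes past the threshold in a CGRP contrast, with up to 3 in each direction for long lists. Genes named outside this rule, with *Tap1* to *Tap2* and *H2-K1* to *H2-D1* ratios, were chosen after their values were seen. Members and lists were chosen with earlier results of these data known. Alternatives were RLE and upper-quartile scaling, other count filters, thinning, replicate blocks, DESeq2 (1.42.0), limma-voom with quality weights (limma 3.58.1), 1 surrogate variable (sva 3.50.0), only the libraries of a contrast, and leaving out each library. The fits were tested on simulated counts. Same-numbered CGRP libraries of both subsets deviated together over 7618 genes (r = 0.233, 0.126 and 0.136), and other same-numbered libraries were not taken to pair. The main fits used no block, so this pairing enters only in the alternatives. The labels do not say whether same-numbered libraries share an explant.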

Additional observations from a re-analysis of the deposited data

How the results depend on the processing

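The cause of the changes given here was not tested. Over 1120 refits of single members, 1039 kept their direction and side of the threshold, 36 lost a call, 23 gained one and 22 changed sign, none of those past the threshold. Leaving out each library in turn, the number of members that rose was 3 to 5 in IAIE cells (3 without IAIE CGRP replicate 1 or 2 or IAIE control replicate 2) and 3 to 6 in CD11c cells (3 without CD11c control replicate 2), and all genes called in IAIE cells numbered 722 to 1122 (722 without IAIE CGRP replicate 2). Between subsets without CGRP, leaving out a library gave 1 to 5 members higher and 0 to 1 lower, and with CGRP 0 to 1 higher. Genes called for the interaction numbered 18, and 6 to 29 with a library left out, 38 with 1 surrogate variable, 97 by DESeq2, 171 with every gene of at least 1 count, 5 with at least 10 counts in every library and 2 by limma-voom, with no member called in any.

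With the replicate block the interaction gave 36 genes, and 52 with the explant replicate block, which pairs the same-numbered libraries of both subsets. The explant replicate block gave 5 members higher and 2 lower in CD11c control libraries and 1 higher in CGRP libraries. In control libraries the numbers were not taken to pair (r = 0.0789, 0.0414 and 0.0677). With every gene of at least 1 count, 5 members were higher in CD11c control libraries. Limma-voom and the compared libraries alone each gave 1 member higher in CD11c CGRP libraries. The replicate block left the *Psmb9* to *Psmb6* difference at 0.71 with an exact p of 0.0625, and the *Psmb10* to *Psmb7* difference at -0.89 with an exact p of 0.03125, the smallest 6 pairs allow. Those pairs join control and CGRP libraries by number, which were not taken to pair (r from -0.036 to 0.104). The replicate block without the explant changed no call of a member. Leaving out a library gave -0.28 to 0.25 for *Psmb8* to *Psmb5*.

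Sign changes, all far from the threshold, came with a library left out unless named: *Psmb10* in IAIE, -0.38 to 0.084; *H2-D1* in CD11c, -0.11 to 0.013; the interaction of *B2m*, -0.086 to 0.12 (-0.043 with every gene of at least 1 count, -0.0093 by limma-voom), *Tap1*, -0.35 to 0.015, *Tapbp*, -0.25 to 0.058, and *Psmb9*, -0.085 to 0.35. Between subsets without CGRP, *Tapbp* ran from -0.0023 to 0.14 and *Psmb10* from -0.038 to 0.22, and with CGRP *H2-K1* from -0.018 to 0.22, *H2-D1* from -0.051 to 0.12, *Tapbp* from -0.20 to 0.11 and *Nlrc5* from -0.34 to 0.17 (0.096 with 1 surrogate variable). The fewest reads lie behind *Psmb9* (13 to 145 counts a library) and *Psmb10* (44 to 108).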
